A study of Arabidopsis thaliana with 12 samples.

Results

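The genes described here are 31 Arabidopsis loci of the salicylate defence pathway, taken by locus identifier, out of 20794 genes that could be tested on the arrays. They comprise 7 genes of the synthesis layer, 13 of the signalling layer and 11 output genes. The synthesis layer also holds DMR6 and DLO1, which turn salicylate over, and the pipecolate genes ALD1 and FMO1. All 31 were represented on the array, by 50 probes, and all 31 passed the filter on dim probes. The list names loci by function and states no measured value, but it was assembled with results of these arrays known, so the counts and adjusted p-values below describe the members and are not independent evidence that the pathway moved.

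The study compared Col wild-type plants with plants carrying 35S::RDM4, a transgene in which the constitutive viral 35S promoter drives RDM4, a gene named for its role in RNA-directed DNA methylation. Seedlings of both genotypes were 2 weeks old and had grown on MS plates under long days. They were sampled at room temperature (0 h) or after 3 h or 48 h at 4 °C, and RNA was taken from the leaves of 30 or more seedlings per plate. Each of the 6 groups had 2 arrays, labelled as biological replicates. How many overexpression lines stand behind the arrays is not given in the sources used here. No room-temperature array was available at the later times, so hours in the cold and the hour of sampling cannot be told apart.

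Salicylate is made from isochorismate, which ICS1 (named EDS16 in the RefSeq table) forms from chorismate in the chloroplast. The transporter EDS5 exports isochorismate, and salicylate is completed outside the chloroplast through the amino acid conjugating enzyme PBS3. The lipase-like proteins EDS1, PAD4 and SAG101 and the transcription factors CBP60G and SARD1 drive its accumulation, and NPR1, NPR3 and NPR4 perceive it and act with TGA factors on defence genes. The pathogenesis-related gene PR1 is the classical marker of its output. In leaves the pathway limits growth when active and is linked to cold through CAMTA transcription factors, which repress it in warm-grown plants.

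RDM4 itself was 1.07 to 1.50 times the array's 75th percentile of signal on the 6 wild-type arrays and 43.4 to 68.6 times on the 6 overexpression arrays, which fits the genotype labels. All levels below are given in that unit, as multiples of the 75th percentile of each array, and a level compares 1 probe between arrays, never different genes. The share of probes detected above background ranged over the arrays from 73.1% to 76.5%, no probe was saturated, and replicate arrays correlated at 0.9956 to 0.997. The 8 leaf marker genes were above background on every array and none was called between genotypes. The 9 root marker genes were also above background on the arrays at 0 h and 3 h, and 8 of them at 48 h, so transcripts of root marker genes were detected in tissue labelled leaf. Their summed level ranged from 7.0 to 9.87 over the arrays and that of the leaf markers from 384 to 675. Both sets come from bulk RNA, in which fewer cells of a type and less RNA per cell cannot be told apart.

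In wild-type plants the output genes collapsed within 3 h of cold and most were still low at 48 h. By the processed signal PCC1, LURP1, BG3, PR1 and PR2 fell by 6.7-fold or more at 3 h. The falls of the dim genes PR1 and BG3 were smaller under another background correction, normexp, as given below. In contrast, the synthesis enzyme PBS3 and the regulators CBP60G and PAD4 rose at 3 h and rose further by 48 h. A gene was called at a Benjamini-Hochberg adjusted p below 0.05 in limma over all 20794 genes. At 3 h, 7 members rose and 19 fell, where 30.8% and 37.2% of all genes did, and 68.1% were called in either direction. At 48 h, 7 rose and 19 fell against 0 h, where 39.7% and 39% of all genes did, and 78.7% were called in either direction. Cold changed most of the transcriptome, so larger changes are given too. At least 2-fold, 12 of 31 fell at 3 h, against 3.16% of all genes, and 10 of 31 at 48 h, against 9.2%. Rises of that size were seen in 1 member at 3 h (6.26% of all genes) and 2 at 48 h (9.19%). Because the list was assembled with results of these arrays known, these shares describe the members and test nothing. The median change of the 31 was -0.52 on the log2 scale at 3 h and -0.20 at 48 h, with the median of all genes at -0.04 and -0.00.

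**Figure D1:**
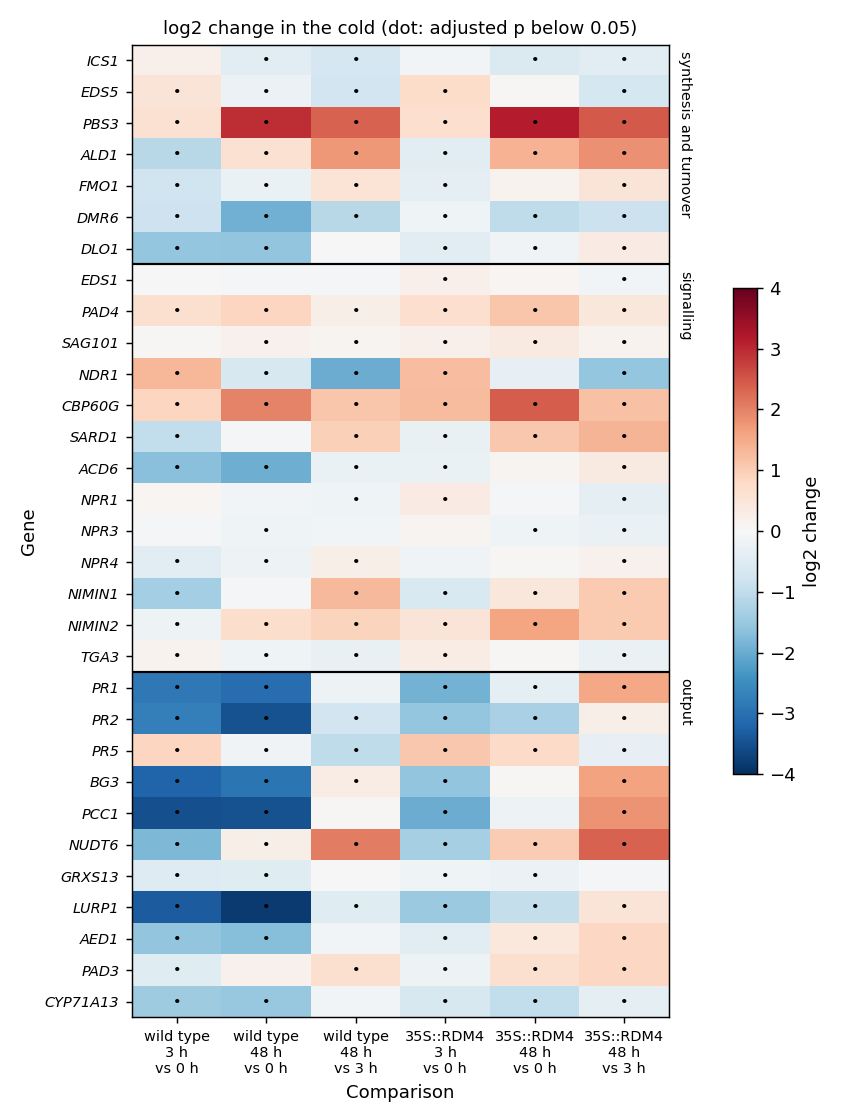
Change in signal (log2) of the 31 salicylate genes, one row per gene, grouped by layer, for the 6 comparisons of time points within a genotype; colour gives direction and size and a dot marks an adjusted p below 0.05 in limma. The output rows are mostly negative in wild type at 3 h and 48 h. From 3 h to 48 h 8 of 11 output genes rose in the overexpression plants, where 40.7% of all genes did.

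PR1 (AT2G14610), a secreted antimicrobial protein, read 0.153 and 0.152 in wild type at 0 h, 0.0244 and 0.0182 at 3 h, and 0.0204 and 0.0165 at 48 h. PR2 (AT3G57260), a beta-glucanase listed as BGL2 by RefSeq, read 2.06 and 1.90 at 0 h, 0.305 and 0.288 at 3 h, and 0.174 and 0.177 at 48 h. For both genes the 0 h arrays were high and all cold arrays low, with no overlap between 0 h and either later time. The log2 change at 3 h was -2.86 ± 0.13 (SE, n = 2 per group, adjusted p = 3.28e-07) for PR1 and -2.74 ± 0.05 (adjusted p = 1.57e-09) for PR2. PR2 fell further from 3 h to 48 h, by 0.76 on the log2 scale, while the PR1 step of -0.20 was not called (adjusted p = 0.193). PR1 and BG3 (AT3G57240), described next, are dim, and their changes at 3 h were -2.18 and -2.41 log2 after normexp background correction, with the same calls.

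PCC1 (AT3G22231), a small protein induced by pathogens and controlled by the circadian clock, read 4.12 and 4.72 at 0 h, 0.362 and 0.405 at 3 h, and 0.369 and 0.424 at 48 h. LURP1 (AT2G14560), needed for basal defence against an oomycete, read 2.17 and 2.25, then 0.211 and 0.225, then 0.162 and 0.147. BG3, another beta-glucanase, read 0.144 and 0.148, then 0.0153 and 0.0161, then 0.0199 and 0.0188. These 3 genes fell the most of the 31 at 3 h, while at 48 h LURP1 (-3.84) was followed by PR2 (-3.50), PCC1 (-3.48), PR1 (-3.06) and BG3 (-2.92). PCC1 fell 11.5-fold at 3 h (-3.53 ± 0.12 log2, adjusted p = 4.9e-08), LURP1 by 3.34 and BG3 by 3.21 on the log2 scale. Among all 20794 genes they ranked 13, 16 and 19 by size of fall at 3 h, with PR1 at 35 and PR2 at 40. PR1 and LURP1 lie on chromosome 2 with 1 protein-coding gene between them, and PR2 and BG3 lie on chromosome 3 with 1 between them, so these pairs are close neighbours.

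The remaining outputs differed from these. AED1 (AT5G10760), a secreted aspartyl protease, read 0.623 and 0.659 at 0 h, 0.206 and 0.222 at 3 h, and 0.196 and 0.199 at 48 h, a fall of 1.58 log2 with no called change after 3 h. NUDT6 (AT2G04450), a nudix hydrolase, read 0.244 on both arrays at 0 h, 0.069 and 0.0705 at 3 h, and 0.284 and 0.287 at 48 h, and so fell by 1.81 log2 and ended slightly above its start (0.23 log2, adjusted p = 0.000312). PR5 (AT1G75040), a thaumatin-like protein, was the only output gene that rose at 3 h, from 0.931 and 0.973 to 1.70 and 1.74, before it dropped to 0.840 and 0.869 at 48 h. GRXS13 (AT1G03850), a glutaredoxin, fell by 0.52 log2 at 3 h. CYP71A13 (AT2G30770), a camalexin enzyme, read 0.0411 and 0.0422, then 0.0160 and 0.0152, then 0.0152 and 0.0136. CYP71A13 fell by 1.42 log2 at 3 h and PAD3 (AT3G26830), the last camalexin enzyme, by 0.47, and at 48 h PAD3 was not called (0.16, adjusted p = 0.0582). Among 4 further camalexin genes, which are not members, 2 rose and 1 fell at 3 h. In counts, 10 of 11 outputs fell and 1 rose at 3 h, with a median of -1.81 log2, and 9 fell and 1 rose at 48 h, with a median of -1.70. Of all genes, 37.2% fell and 30.8% rose at 3 h, and 39% fell and 39.7% rose at 48 h.

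**Figure D2:**
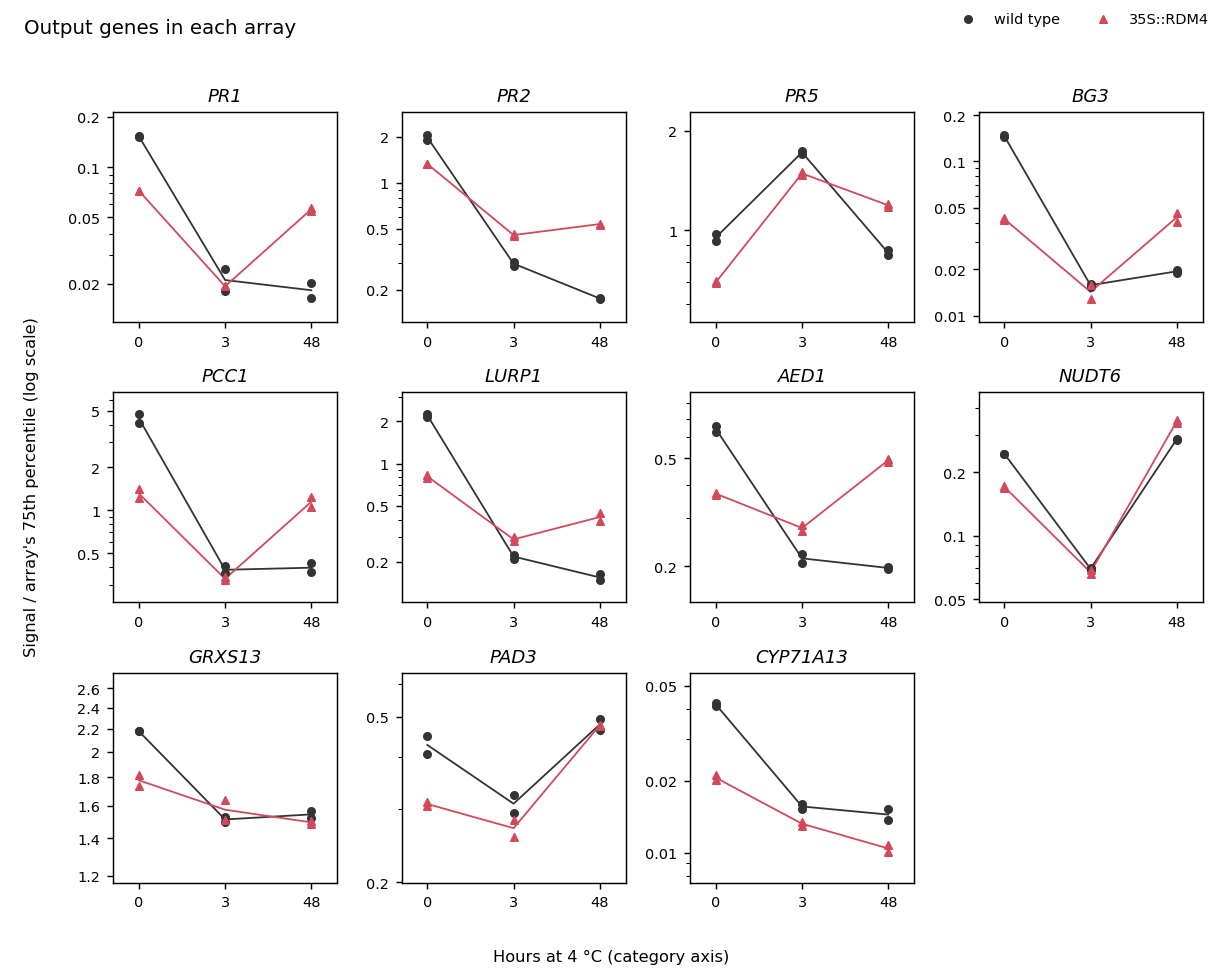
Signal of output genes on each array, as multiples of the array's 75th percentile on a log axis, against hours at 4 °C; points are single arrays (2 per group), lines join group means, and colours give genotype. For PCC1 the wild-type points drop from 4.12 and 4.72 at 0 h to 0.369 and 0.424 at 48 h, while the overexpression points end at 1.06 and 1.24.

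Synthesis genes split by step. PBS3 (AT5G13320), which conjugates glutamate to isochorismate, read 0.244 and 0.288 at 0 h, 0.400 and 0.413 at 3 h, and 2.08 and 2.07 at 48 h, a rise of 7.82-fold at 48 h (2.97 ± 0.08 log2, adjusted p = 6.97e-09). ICS1 (AT1G74710), the first committed enzyme, read 0.251 and 0.326 at 0 h, 0.312 and 0.346 at 3 h, and 0.198 and 0.217 at 48 h. EDS5 (AT4G39030), the exporter, read 0.605 and 0.594, then 0.833 and 0.883, then 0.476 and 0.538. PBS3 therefore rose at both times, EDS5 rose at 3 h (0.52 log2) and fell below its start at 48 h (-0.24), and ICS1 was called only at 48 h, where it fell by 0.46 log2 (adjusted p = 0.00743). The replicate arrays of ICS1 at 0 h were farther apart than those of PBS3, and its SE was 0.12 log2.

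DMR6 (AT5G24530) and DLO1 (AT4G10500), the hydroxylases that turn salicylate over, both fell. DMR6 read 2.22 and 2.37 at 0 h, 1.32 and 1.29 at 3 h, and 0.616 and 0.593 at 48 h. DLO1 read 0.338 and 0.326, then 0.115 and 0.111, then 0.111 and 0.114. DLO1 reached its low level by 3 h, whereas DMR6 fell at both steps, by 0.81 log2 to 3 h and by a further 1.11 to 48 h. ALD1 (AT2G13810) and FMO1 (AT1G19250) make pipecolate and its N-hydroxylated form, the mobile signal of systemic resistance. ALD1 read 0.0727 and 0.0710, then 0.0324 and 0.0337, then 0.110 and 0.108. Both genes dipped at 3 h, by 1.12 and 0.80 log2. At 48 h ALD1 stood above its start (0.60) and FMO1 below it (-0.27). The layer counts were 2 higher and 4 lower of 7 at 3 h, and 2 higher and 5 lower at 48 h, beside the same shares of all genes as above. At 48 h the number lower was 3 without wild-type replicate 2 at 0 h.

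In the signalling layer CBP60G (AT5G26920), a transcription factor that activates ICS1, read 0.305 and 0.343 at 0 h, 0.596 and 0.586 at 3 h, and 1.29 and 1.24 at 48 h. Its close relative SARD1 (AT1G73805) read 0.166 and 0.183, then 0.0847 and 0.0922, then 0.168 and 0.173. The pair moved apart: CBP60G rose by 0.87 and 1.97 log2 at 3 h and 48 h, while SARD1 fell by 0.98 at 3 h and was back near its start at 48 h (-0.03, adjusted p = 0.637). PAD4 (AT3G52430), partner of EDS1 (AT3G48090), read 0.960 and 0.954, then 1.45 and 1.51, then 1.73 and 1.77, a rise of 0.63 and 0.87 log2. ACD6 (AT4G14400), an ankyrin-repeat membrane protein that promotes salicylate accumulation, read 0.822 and 0.762 at 0 h, 0.254 and 0.241 at 3 h, and 0.217 and 0.196 at 48 h. ACD6 had the deepest fall of the 13 signalling genes at both times, by 1.67 log2 at 3 h and by 1.94 at 48 h.

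NIMIN1 (AT1G02450) and NIMIN2 (AT3G25882) encode small proteins that bind NPR1 (AT1G64280) and modulate it. NIMIN1 read 0.0761 and 0.0850 at 0 h, 0.0305 and 0.0316 at 3 h, and 0.0755 and 0.0765 at 48 h. NIMIN2 read 0.413 and 0.386, then 0.352 and 0.345, then 0.632 and 0.664. NIMIN1 thus fell by 1.37 log2 and stood at -0.08 at 48 h (adjusted p = 0.315), and NIMIN2 fell by 0.20 and then stood 0.70 above its start. The receptors and core partners changed less. NPR1, NPR3 (AT5G45110), NPR4 (AT4G19660), TGA3 (AT1G22070), EDS1 and SAG101 (AT5G14930) stayed between -0.42 and 0.18 log2 in both wild-type cold comparisons. The probes of SAG101 disagreed, from -2.91 to 0.29 log2 at 48 h, and their mean gave a fall of 0.81 log2 (adjusted p = 2.55e-06) where the brightest probe gave a rise of 0.18. EDS1 was called in neither, with 0.631 and 0.633 at 0 h and 0.616 on both arrays at 48 h. NDR1 (AT3G20600), a membrane protein needed by some resistance receptors, was dim, with 0.00669 and 0.00978 at 0 h, 0.0182 and 0.0231 at 3 h, and 0.00469 and 0.00569 at 48 h. It rose by 1.34 log2 at 3 h and was not well above background in either 48 h group. By the processed signal alone, its 48 h level in wild type was at least 3.06-fold lower than at 3 h. With the deposited value table the change from 3 h to 48 h in wild type was smaller, -0.78 log2 (adjusted p = 0.000349 in limma). After normexp background correction neither the rise of NDR1 (0.09, adjusted p = 0.828) nor its fall from 3 h to 48 h (-0.78, adjusted p = 0.06) was called. Counts for the layer were 4 higher and 5 lower of 13 at both times, beside 30.8% and 37.2% of all genes at 3 h and 39.7% and 39% at 48 h. At 48 h the number lower was 2 without wild-type replicate 2 at 48 h and 2 with the deposited value table.

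**Figure D3:**
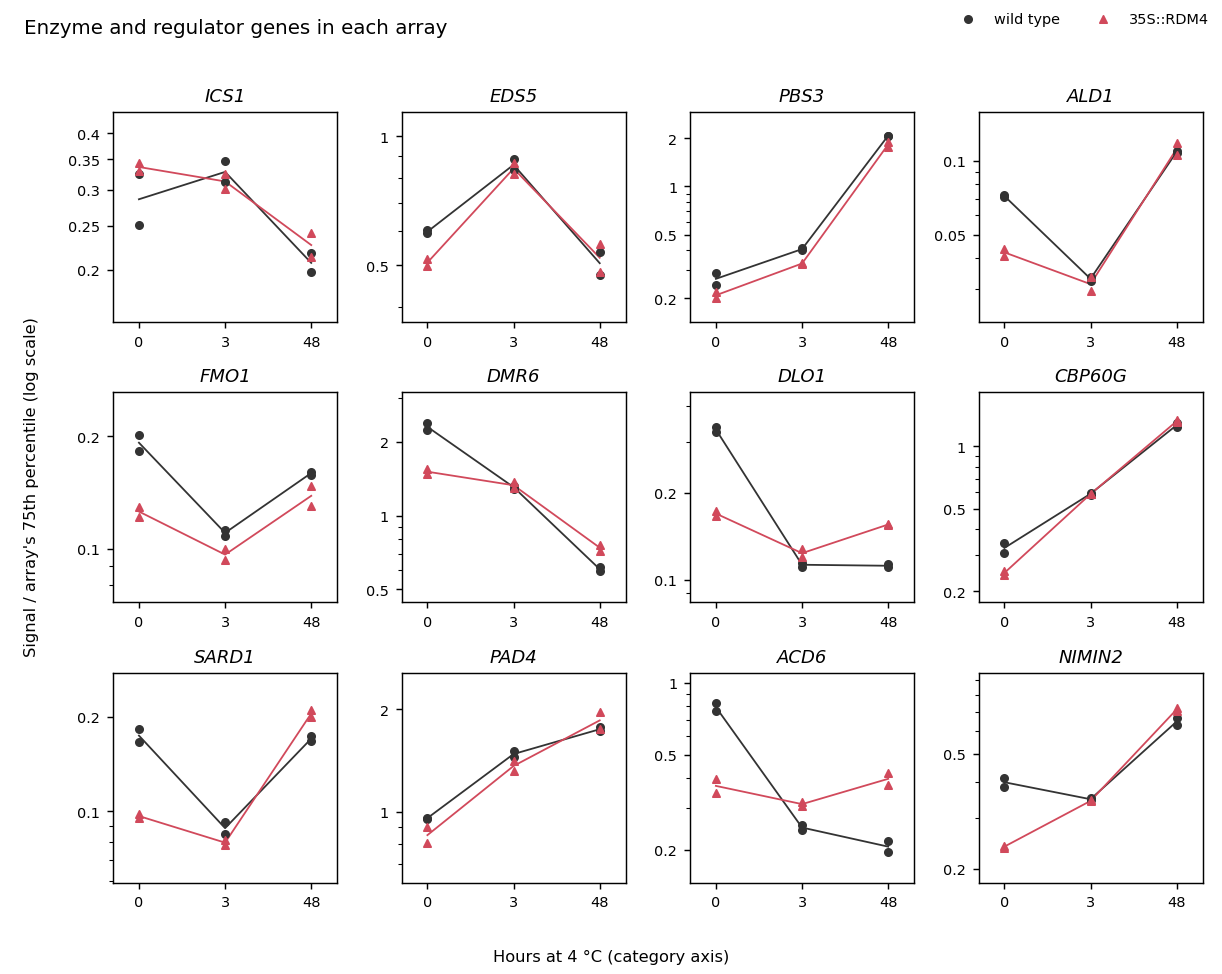
Signal of synthesis and signalling genes on each array, as multiples of the array's 75th percentile on a log axis, against hours at 4 °C. All synthesis genes are drawn, but of the signalling genes only CBP60G, SARD1, PAD4, ACD6 and NIMIN2, so the genes that changed little are left out. Points are single arrays (2 per group), lines join group means, and colours give genotype. PBS3 and CBP60G climb in both genotypes, to 2.08 and 2.07 against 1.77 and 1.89 for PBS3 at 48 h, while ACD6 falls in wild type and ends at 0.373 and 0.421 in the overexpression plants.

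Plants overexpressing RDM4 held lower levels of these genes before any cold. Of the 31 members 24 were lower and 0 higher at 0 h, where 8.23% and 4.72% of all genes were, and 13% were called in either direction. At an unadjusted p below 0.05 in limma, 27 were lower and 0 higher. No share of all genes was counted at that unadjusted threshold, here or below, so the shares given apply to adjusted calls only. All 11 outputs were lower, with a median of -0.79 log2, as were 5 of 7 synthesis genes (median -0.61) and 8 of 13 signalling genes (median -0.20). The 5 of the synthesis layer were PBS3, ALD1, FMO1 and the turnover genes DMR6 and DLO1. The 6 that were at least 2-fold lower were PCC1, BG3, LURP1, PR1, ACD6 and CYP71A13, and 0.375% of all genes reached that size. None of the 31 was 2-fold higher (0 members, 0.0962% of all genes).

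PCC1 read 1.22 and 1.42 in overexpression plants at 0 h, against 4.12 and 4.72 in wild type, a difference of -1.75 ± 0.12 log2 (3.36-fold, adjusted p = 0.000131). PR1 read 0.072 and 0.0725 against 0.153 and 0.152 (-1.08 ± 0.13, adjusted p = 0.00202). ACD6 read 0.347 and 0.395 against 0.822 and 0.762 (-1.10 ± 0.09, adjusted p = 0.000314). In each of these genes both overexpression arrays lay below both wild-type arrays. LURP1 read 0.829 and 0.794 against 2.17 and 2.25, a difference of -1.45 log2. BG3 read 0.0426 and 0.0420 against 0.144 and 0.148 (-1.79). CYP71A13 read 0.0211 and 0.0201 against 0.0411 and 0.0422 (-1.02), and it was not called after normexp background correction (-0.90, adjusted p = 0.0717). Within the synthesis layer the turnover gene DLO1 differed most, with 0.166 and 0.173 against 0.338 and 0.326 (-0.97). The 7 members that were not called included ICS1, EDS5, PAD4 and NPR1, with estimates of the 7 from -0.24 to 0.25 log2.

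The genotypes never shared a slide at 0 h. With the slide as a block, which left 2 residual degrees of freedom, 3 members were called lower: PCC1 (-2.25, adjusted p = 0.0142), BG3 (-1.67, adjusted p = 0.0482) and ACD6 (-1.24, adjusted p = 0.0403). Each of the 2 scan days held both genotypes at 0 h with 1 array each, and the difference within a day was -1.76 and -1.74 for PCC1 and -1.09 and -1.07 for PR1, values that have no test. The summed root marker level was 9.87 and 9.51 in wild type and 8.09 and 8.38 in overexpression plants at 0 h, 6 of the 9 markers were called lower, by 0.23 to 0.41 log2, and their part in the result was not tested.

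After 3 h of cold the genotypes were close together. Only 4 of 31 members were called, where 4.92% of all genes were: PR2 (0.62 ± 0.05 log2, adjusted p = 0.00251), LURP1 (0.41) and AED1 (0.37) were higher in overexpression plants, against 2.24% of all genes, and PR5 (-0.21) was lower, against 2.68%. PR2 read 0.447 and 0.465 in overexpression plants against 0.305 and 0.288 in wild type. No member differed 2-fold in either direction (0 members, against 0.12% of all genes higher and 0.024% lower). The 27 other estimates lay between -0.30 and 0.33 log2. Of the 24 genes that had been lower at 0 h, 20 were not called at 3 h. PR1, for example, read 0.0193 and 0.0194 in overexpression plants, between the wild-type values of 0.0244 and 0.0182. The calls at 3 h were fragile: 0 members were called with the slide as a block or with the 4 compared arrays alone, and without wild-type replicate 1 at 3 h or overexpression replicate 2 at 3 h the count of higher members was 1.

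At 48 h the order at 0 h had turned over for the outputs. Of 31 members 11 were higher in overexpression plants and 1 lower, where 2.56% and 1.13% of all genes were, and 3.69% were called in either direction. All but 3 of the 11 higher members were outputs: PR1, PR2, PR5, BG3, PCC1, NUDT6, LURP1 and AED1. The other 3 were ACD6, DLO1 and DMR6, and the gene that was lower was CYP71A13 (-0.47 log2). CYP71A13 was above background on 1 of the 2 overexpression arrays at 48 h, and its call was lost under several alternatives, among them normexp background correction (-0.14, adjusted p = 0.971) and the mean of its probes (-0.28, adjusted p = 0.42). These 11 had all been lower at 0 h, on other arrays, though the wild-type arrays of both times shared slides and scan days. By layer, 8 of 11 outputs were higher, with a median of 1.16 log2, against 2 of 7 synthesis genes (median 0.04) and 1 of 13 signalling genes (median 0.06). The 2 of the synthesis layer, the turnover genes DLO1 and DMR6, were not called (0 genes) after normexp background correction or with the deposited value table.

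PR2 read 0.542 and 0.533 in overexpression plants at 48 h and 0.174 and 0.177 in wild type (1.62 ± 0.05 log2, adjusted p = 2.56e-06). PR1 read 0.055 and 0.057 against 0.0204 and 0.0165 (1.61 ± 0.13, adjusted p = 0.000441). PCC1 read 1.06 and 1.24 against 0.369 and 0.424 (2.9-fold, 1.54 ± 0.12, adjusted p = 0.000297). The overexpression arrays lay above the wild-type arrays in each. LURP1 was higher by 1.43, AED1 by 1.32 and BG3 by 1.16 log2, and these 6 passed 2-fold, as 0.289% of all genes did, while 0 members were 2-fold lower, against 0.0577%. After normexp background correction the dim genes PR1 (0.97, adjusted p = 0.063) and BG3 (0.73, adjusted p = 0.0534) were not called. The 1 slide that held both genotypes at 48 h had 1 array of each, and its differences were 1.62 for PR2, 1.73 for PR1 and 1.32 for PCC1, with no test.

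For most synthesis and signalling genes no difference between genotypes was called at 48 h. PBS3 read 1.77 and 1.89 in overexpression plants against 2.08 and 2.07 in wild type (-0.18 ± 0.08 log2, adjusted p = 0.28). CBP60G read 1.34 and 1.31 against 1.29 and 1.24 (0.06 ± 0.05, adjusted p = 0.619). ICS1, which had fallen by 48 h in both genotypes, read 0.214 and 0.241 against 0.198 and 0.217 (0.13 ± 0.12, adjusted p = 0.652). In the synthesis layer the turnover gene DLO1 differed most at 48 h (0.47 log2). It read 0.155 and 0.156 in overexpression plants against 0.111 and 0.114. The 6 others of the layer lay between -0.20 and 0.29.

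**Figure D4:**
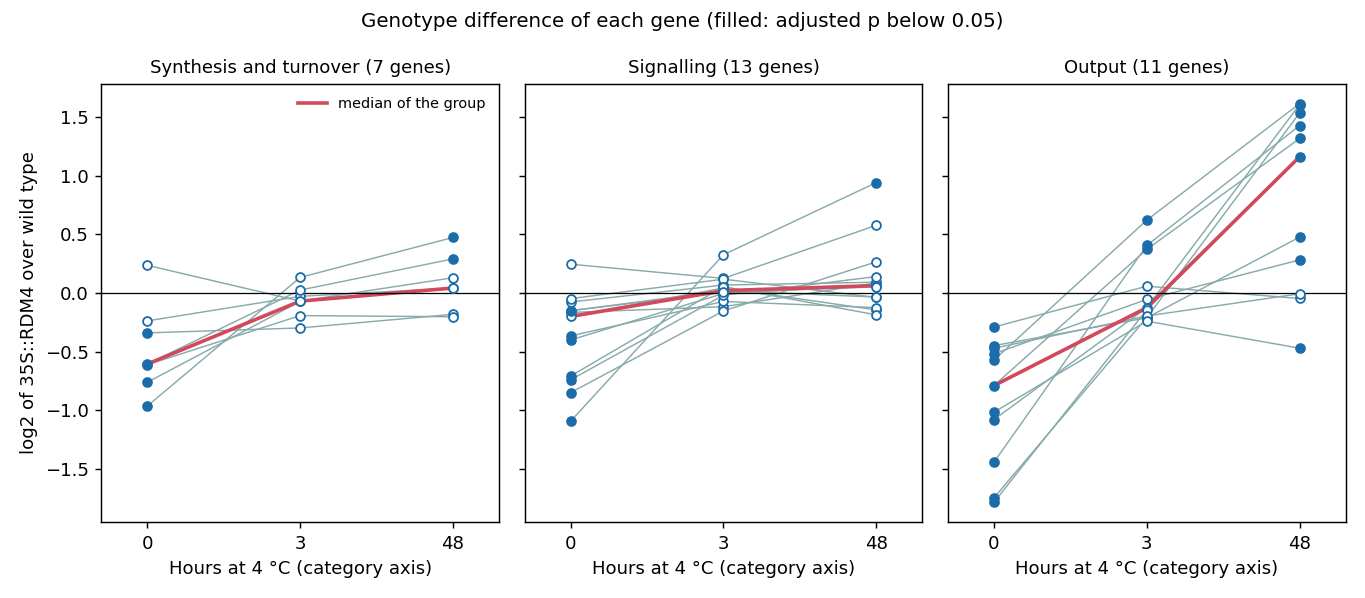
Difference between overexpression and wild-type plants (log2) for each of the 31 genes at 0 h, 3 h and 48 h, grouped into synthesis, signalling and output. Filled points have an adjusted p below 0.05 in limma and the red line joins the group medians. The output median lies at -0.79 at 0 h, -0.13 at 3 h and 1.16 at 48 h.

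Between 3 h and 48 h most outputs rose in the overexpression plants. From 3 h to 48 h, 20 of 31 members rose and 10 fell in overexpression plants, where 40.7% and 35% of all genes did (75.8% in either direction), while 13 rose and 10 fell in wild type, where 41% and 35% did (76% in either direction). At least 2-fold, 10 rose and 1 fell in overexpression plants (6.17% and 8.92% of all genes), and 5 rose and 3 fell in wild type (5.76% and 9.41%). Among the outputs 8 rose in overexpression plants and 3 in wild type. PCC1 fell from 1.22 and 1.42 at 0 h to 0.338 and 0.323 at 3 h and then rose to 1.06 and 1.24, and its 48 h level did not differ from 0 h by the test (-0.19 ± 0.12, adjusted p = 0.163). BG3 went from 0.0426 and 0.0420 to 0.0128 and 0.0158 and back to 0.0406 and 0.0462. For these 2 genes no difference between 48 h and 0 h was called in overexpression plants, and their 0 h level was itself below that of wild type. PR1 went from 0.072 and 0.0725 to 0.0193 and 0.0194 and then to 0.055 and 0.057, short of its start by 0.37 log2 (adjusted p = 0.0303). LURP1 went from 0.829 and 0.794 to 0.280 and 0.298 and then to 0.392 and 0.443. PR2 went from 1.32 and 1.34 to 0.447 and 0.465 and then to 0.542 and 0.533. LURP1 and PR2 recovered in part, by 0.53 and 0.24 log2 from 3 h to 48 h.

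Other members passed their start. ALD1, SARD1, NIMIN1, NUDT6, AED1 and PAD3 fell at 3 h and stood above 0 h at 48 h in overexpression plants. SARD1 read 0.0954 and 0.0977, then 0.0811 and 0.0778, then 0.200 and 0.210, a gain of 1.08 ± 0.06 log2 over 48 h (adjusted p = 5.2e-07). AED1 read 0.367 and 0.373, then 0.270 and 0.283, then 0.498 and 0.486. PR5 read 0.692 and 0.702, then 1.50 and 1.47, then 1.20 and 1.18. AED1 and PR5 were lower at 48 h than at 0 h in wild type and higher in overexpression plants. NUDT6 read 0.168 and 0.173, then 0.0685 and 0.0657, then 0.351 and 0.343. ALD1 read 0.0409 and 0.0439, then 0.0335 and 0.0295, then 0.106 and 0.118. NUDT6 gained 1.03 and ALD1 1.40 log2 over the 48 h. NIMIN2 read 0.236 and 0.241, then 0.342 and 0.345, then 0.724 and 0.703. NIMIN2 rose at 3 h, by 0.53 log2, where it had fallen in wild type. PBS3 (3.13 log2, 8.73-fold), CBP60G (2.43 log2) and PAD4 (1.12 log2) rose over 48 h, as they had in wild type. DMR6 went from 1.48 and 1.54 through 1.36 and 1.29 to 0.719 and 0.760, a fall of 1.03 log2. Against 0 h, 11 members rose and 17 fell at 3 h in overexpression plants, where 32.9% and 37% of all genes did (70% in either direction), and 12 rose and 9 fell at 48 h, where 40.8% and 38.7% did (79.5% in either direction). At least 2-fold, 3 rose and 6 fell at 3 h (6.71% and 2.83% of all genes), and 7 rose and 2 fell at 48 h (9.94% and 8.57%).

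The test of the difference between the cold responses compares the change in overexpression plants with the change in wild type. It equals the genotype difference in the cold minus that at 0 h, so it shares its arrays with both. At 3 h 19 members had a higher response in overexpression plants and 0 a lower one, where 4.72% and 2.58% of all genes did (7.3% in either direction). In level at 3 h, 15 of these 19 were not called between genotypes. PR2, LURP1 and AED1 were higher in overexpression plants and PR5 was lower. At 48 h 18 members had a higher response and 0 a lower one, where 4.55% and 0.909% of all genes did (5.46% in either direction). At an unadjusted p below 0.05 in limma, 26 were higher and 0 lower at 3 h, and 25 were higher and 0 lower at 48 h. These 2 unadjusted counts have no share of all genes beside them. Differences of at least 2-fold were higher for 7 members and lower for 0 at 3 h (0.289% and 0.00962% of all genes), and higher for 9 and lower for 0 at 48 h (0.673% and 0.0385%). PCC1 had the largest value of the members at 48 h, 3.29 ± 0.17 log2 (adjusted p = 3.11e-05), which is its 1.54 at 48 h less its -1.75 at 0 h. It ranked 18 of 20794, followed by BG3 (2.95) at 25, LURP1 (2.88) at 26 and PR1 (2.69) at 35. After normexp background correction the values of BG3 and PR1 were 2.31 and 1.97, with the same calls.

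Of the 18 genes with a higher response at 48 h, 11 were also higher in overexpression plants at 48 h. For the 6 genes ALD1, CBP60G, SARD1, NIMIN1, NIMIN2 and PAD3 a lower level was called at 0 h and no difference at 48 h, as for CBP60G with -0.40 log2 at 0 h and 0.06 at 48 h. CYP71A13 stood at -1.02 at 0 h and -0.47 at 48 h, the latter with the limits given above. Output genes made up 10 of the 18, with a layer median of 2.11 log2, against 3 of 7 synthesis genes (median 0.41) and 5 of 13 signalling genes (median 0.25), and with the slide as a block the signalling count was 2. At 3 h the output median was 0.96, with 10 of 11 called, where 7.3% of all genes were. At 3 h 5 of the 9 root markers also had a higher response in overexpression plants, and their part in the result was not tested. With the slide as a block 8 members, 5 of them outputs, were called at 3 h.

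Of 41 further genes of the pathway 38 were tested, a list also drawn up with earlier results known. Among the 13 other synthesis and modification genes 7 rose and 3 fell in wild type at 3 h, where 30.8% and 37.2% of all genes did. PAL1 and PAL2, the phenylalanine ammonia lyases of the second route to salicylate, rose by 1.45 and 1.42 log2. PAL2 was still 1.46 above 0 h at 48 h. MES9, a methyl salicylate esterase, rose by 1.04 at 3 h. At 48 h MES9 read 0.292 and 0.316, below its 0.583 and 0.629 at 0 h. UGT74F2, which attaches glucose to salicylate, fell from 3.99 and 3.64 at 0 h to 0.952 and 0.928 at 48 h (-2.02 log2). Between genotypes 3 of these 13 were lower at 0 h, beside 8.23% of all genes, and 0 were called at 48 h in limma, where 2 were higher and 2 lower at an unadjusted p below 0.05.

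Among 18 other signalling genes, 3 were lower in overexpression plants at 0 h, where 8.23% of all genes were, and 1 was higher at 48 h, where 2.56% were. GRX480, a glutaredoxin that binds TGA factors, read 0.169 and 0.181 in wild type at 0 h against 0.103 and 0.0973 in overexpression plants, and 0.0502 and 0.0456 against 0.0599 and 0.0706 at 48 h. Its difference of responses at 48 h was 1.25 log2. The repressors CAMTA1 and CAMTA3 (SR1 in RefSeq) fell by 0.59 and 0.42 log2 in wild type at 48 h, and 0 of 3 CAMTA genes was called between genotypes in limma at any time, with 1 at an unadjusted p below 0.05 at 3 h and 1 at 48 h. Of the 4 other camalexin genes 1 was lower in overexpression plants at 0 h. This was CYP71A12, a relative of CYP71A13, with 0.126 and 0.119 against 0.269 and 0.268 (-1.13 log2). CYP79B2, CYP79B3 and GGP1 were not called at 0 h, at -0.04, -0.07 and -0.03 log2. In wild type at 3 h CYP79B2 rose by 0.68 and GGP1 by 0.56 log2, CYP71A12 fell by 0.61, and CYP79B3 was not called (-0.03).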

How the data were processed

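RNA from 12 samples was hybridised to 12 one-colour (Cy3) Agilent arrays, 2 per group. The deposited files hold, per the file headers, Agilent Feature Extraction 10.7.1.1 output, including a processed signal intensity corrected for background by that software. Per the submitters' processing notes the tool was Agilent Feature Extraction. The deposited value table holds signal intensities whose scale the labels do not state: 11 of its 12 columns equalled the median signal of their array, and the column of overexpression replicate 2 at 48 h did not, so its origin is unknown. That table was used only as an alternative.

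From these, log2 of the processed signal minus the array's 75th percentile was computed, spots of a probe were averaged, and control spots and 108 probes with outlier flags were left out. Probes were kept if well above background on both arrays of at least 1 group. Probe accessions were matched to RefSeq locus tags (TAIR10.1): 34267 of 43603 probes matched, at 25371 loci. A gene was represented by its brightest kept probe, which left 20794 genes, 6198 of them with several kept probes. The array design's build differs from that assembly, so no coordinates are given. limma 3.58.1 in R 4.3.3 fitted the 6 group means over all 12 arrays, with 6 residual and 2.08 prior degrees of freedom, and 11 contrasts were each adjusted by Benjamini-Hochberg over all genes. The fit was tested on simulated data. Genes were named by layer, with values for those that passed at least 2-fold in a comparison or hold a defined step. The members, layers and further lists were chosen with earlier results of these data known. The labels call the replicates biological, but nothing says that they came from separate plates, so p-values measure the spread between these samples. Only 2 arrays per group limit the precision. The 26 alternatives covered background correction, scaling, probe filters, probe summaries, batch blocks and leaving out each array in turn. No sequences are shown.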

Additional observations from a re-analysis of the deposited data

Results flagged for a closer look

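The cold response differed between genotypes, by the test of the difference of responses in limma, for 19 members at 3 h and 18 at 48 h. It differed for 7.3% of all genes at 3 h and 5.46% at 48 h. For each of these members the higher log2 change was in overexpression plants. In level at 3 h, 15 of the 19 were not called between genotypes. Each value below is the log2 change from 0 h in overexpression plants minus that in wild type (adjusted p below 0.05 over all genes), and each shares the 0 h arrays of both genotypes with the others.

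Among outputs at 3 h, the difference was 1.85 for LURP1, 1.64 for BG3, 1.54 for PCC1, 1.20 for PR2, 1.16 for AED1, 0.96 for PR1, 0.78 for CYP71A13, 0.46 for NUDT6, 0.35 for GRXS13 and 0.24 for PR5. At 48 h it was 3.29 for PCC1, 2.95 for BG3, 2.88 for LURP1, 2.69 for PR1, 2.19 for PR2, 2.11 for AED1, 0.93 for PR5, 0.80 for NUDT6, 0.55 for CYP71A13 and 0.47 for PAD3.

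Among signalling genes at 3 h, the difference was 1.42 for ACD6, 0.76 for NIMIN1, 0.72 for NIMIN2, 0.70 for SARD1 and 0.40 for CBP60G. At 48 h it was 2.04 for ACD6, 1.12 for SARD1, 0.88 for NIMIN2, 0.52 for NIMIN1 and 0.46 for CBP60G. Among synthesis genes at 3 h, it was 1.10 for DLO1, 0.69 for ALD1, 0.63 for DMR6 and 0.42 for FMO1, and at 48 h 1.44 for DLO1, 0.90 for DMR6 and 0.80 for ALD1.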

How the results depend on the processing

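The 26 alternatives include a 2-fold minimum, which is set aside in these counts. Of 231 calls of members over the 11 comparisons, 141 held under all the other alternatives, and 163 when the slide block was also set aside. NDR1 and CYP71A13 were removed by the stricter background filter, and these counts do not treat that as a lost call. Of the 90 calls of at least 2-fold, 9 were lost under an alternative, each under normexp background correction or the slide block. The genes concerned were NDR1, PR1, BG3, LURP1 and CYP71A13.

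With a 2-fold minimum the members higher and lower numbered 1 and 12 in wild type at 3 h, 2 and 10 at 48 h, and 5 and 3 from 3 h to 48 h. In overexpression plants they numbered 3 and 6, 7 and 2, and 10 and 1. Between genotypes 6 were lower at 0 h, 0 were higher and 0 lower at 3 h, and 6 higher and 0 lower at 48 h. For the difference of responses 7 were higher at 3 h and 9 at 48 h. With the slide as a block, 4 members were lower at 48 h than at 0 h in overexpression plants, and 8 had a higher response at 3 h. Between genotypes, 3 members were lower at 0 h, 0 were called at 3 h and 0 were lower at 48 h under that block. After normexp correction 12 had a higher response at 3 h. Between genotypes at 3 h the members higher numbered 1 after normexp correction and with the deposited value table, and 0 with the compared arrays alone. The members lower numbered 0 under those 3 settings, 2 under median scaling, the stricter background filter and trended robust variance, and 3 with the scan day as a block. The member lower at 48 h, CYP71A13, was not called (0 members) under normexp correction, the value table or the mean of the probes. Nor was it called with the compared arrays alone, the slide block or trended robust variance. The stricter filter removed CYP71A13, so it was not tested there. These causes were not tested.

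With the replicate number as a block, 3 members were lower between genotypes at 3 h. Deviations of same-numbered arrays correlated at -0.05 to 0.29 over 15 pairs of groups, 5 of them over 0.1. Same-numbered wild-type arrays shared a slide and a scan day (0.17, 0.19 and 0.29), and nothing in the labels pairs arrays across genotypes. The mean of its probes reversed SAG101: -0.81 in wild type at 48 h, -0.70 from 3 h to 48 h, and -0.052, -0.41 and -0.36 in overexpression plants at 3 h, 48 h and from 3 h to 48 h. Its probes disagreed, from -2.91 to 0.29 in wild type at 48 h.

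Leaving out each array in turn gave, in wild type, 6 to 8 higher and 19 to 19 lower at 3 h, 7 to 8 higher and 16 to 19 lower at 48 h and 10 to 13 higher and 8 to 12 lower from 3 h to 48 h. In overexpression plants it gave 11 to 11 higher and 13 to 17 lower, 12 to 13 higher and 6 to 9 lower and 19 to 20 higher and 9 to 10 lower. Between genotypes it gave 0 to 0 higher and 20 to 24 lower at 0 h, 1 to 3 higher and 0 to 2 lower at 3 h and 10 to 12 higher and 1 to 1 lower at 48 h, and for the difference of responses 15 to 19 higher and 0 to 0 lower at 3 h and 15 to 19 higher and 0 to 0 lower at 48 h. The number lower between genotypes at 3 h was 2 without either wild-type 0 h array and 0 without either wild-type 3 h array, either wild-type 48 h array or overexpression replicate 2 at 3 h. Dim genes such as NDR1, PR1 and BG3 are limited by signal near background.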
